A study of Mus musculus with 18 samples.

Results

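Melanoma cells can make pigment, and the RNA of their pigment genes was read in brain tissue that held melanoma metastases. The 6 libraries of the melanoma model B16-F10_BrM4, out of 18 libraries in all, were divided into 2 sets chosen by the RNA of Pmel, which codes for the fibril protein of the melanosome. Libraries with Pmel at 2000 CPM or more, CPM being the raw count relative to the library total, were called high, which put replicates 1, 2 and 3 at 4020, 3224 and 4702 CPM in the high set. The low set held replicates 4, 5 and 6 at 1599, 1058 and 795 CPM. The lowest high library, replicate 2, and the highest low library, replicate 4, lie on either side of the threshold at 3224 and 1599 CPM. Because the sets were made from a measured value, differences between them are given as descriptions with no p-value, and "higher" and "lower" then mean that all 3 high libraries lay above or below all 3 low libraries.

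All groups were brain tissue associated with metastases, from mice labelled wild type, taken 10 days after injection of 40000 tumour cells and read as poly(A)+ RNA. High and low melanoma libraries came from the cell line B16-F10_BrM4, selected for growth in brain from B16-F10, a pigmented melanoma of the mouse. The other 12 libraries, used to tell which RNA is particular to the melanoma model, were 6 with the lung cancer line 482N1 and 6 with EO771-BrM3, derived from EO771 breast carcinoma cells of the mouse. Each model was 1 cell line, the mouse strain is not given in the labels, and no tumour-free brain was among the samples. The labels do not say that each library is a separate animal, so p-values measure the spread between libraries within each fitted group, which may be technical. High and low melanoma libraries were separate groups in the fit, so the difference between them is not part of that spread. P-values between models may therefore be too small for genes that differ between the high and low libraries. In tissue of this kind, fewer cells of a type and less RNA per cell cannot be told apart.

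Pigment is made inside melanosomes, organelles of melanocytes and of many melanoma cells. Melanosome proteins such as PMEL build the fibrils on which tyrosinase (Tyr) and the related enzymes TYRP1 and DCT lay down melanin. The transcription factor MITF switches on many of these genes, together with SOX10 and PAX3. MITF is known to bind the sequence CATGTG, read on either strand, in the promoters of pigment enzyme genes. The 3 enzyme promoters are shown because these genes carry much of the pigment RNA below. Each run covers 250 bases before and 50 bases after the annotated start (RefSeq, GRCm38.p6, sense strand of the gene), at chr7:87493463-87493762 (minus strand) for Tyr, chr4:80833963-80834262 (plus strand) for Tyrp1 and chr14:118052197-118052496 (minus strand) for Dct. Capitals mark CATGTG or its reverse complement CACATG.
Tyr: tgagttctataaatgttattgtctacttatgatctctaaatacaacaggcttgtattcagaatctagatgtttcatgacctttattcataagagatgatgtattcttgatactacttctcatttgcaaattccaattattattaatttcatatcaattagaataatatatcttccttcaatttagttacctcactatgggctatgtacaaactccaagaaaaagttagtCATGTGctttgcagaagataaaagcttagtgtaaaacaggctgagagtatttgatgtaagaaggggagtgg
Tyrp1: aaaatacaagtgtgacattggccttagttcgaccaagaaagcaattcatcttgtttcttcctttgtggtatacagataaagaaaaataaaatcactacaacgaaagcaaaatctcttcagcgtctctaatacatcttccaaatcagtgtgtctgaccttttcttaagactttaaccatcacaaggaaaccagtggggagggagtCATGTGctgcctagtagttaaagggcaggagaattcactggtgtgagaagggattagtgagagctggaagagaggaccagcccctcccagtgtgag
Dct: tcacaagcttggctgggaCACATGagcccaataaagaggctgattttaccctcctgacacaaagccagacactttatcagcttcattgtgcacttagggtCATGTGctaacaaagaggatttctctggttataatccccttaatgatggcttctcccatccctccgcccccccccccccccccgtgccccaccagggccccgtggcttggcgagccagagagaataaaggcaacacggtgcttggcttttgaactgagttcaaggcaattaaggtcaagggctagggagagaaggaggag
The motif stood 21 bases before the start in Tyr and 46 bases before it in Tyrp1. In Dct it stood 232 and 150 bases before the start. Of 33 windows of this kind for 23 of the 32 pigment genes listed below, 9 (27.3%) held the motif, as did 14.2% of all 32851 windows. With a T in front (TCATGTG), part of the same matches, the shares were 7 of 33 (21.2%) and 3.77%. A match of letters is a description of these windows and not evidence of binding.

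Totals ran from 12518918 to 13396710 counts in the high libraries and from 10669355 to 12331520 in the low libraries, so that 3 counts in a library, the floor for reading a gene, come to 0.224 to 0.281 CPM. That floor covers counting error only. The lung and breast libraries had 12070005 to 14533877 and 7366250 to 13544054 counts. Of the melanoma libraries, 2 stood apart in measures that the split did not use. Replicate 1, in the high set, had far more RNA of antigen presentation and interferon response than the other 5. Replicate 3, also in the high set, was poor in long transcripts: its log2 CPM, relative to the mean library, fell by 0.26 for each doubling of transcript length, against slopes of 0.05 and 0.07 in replicates 1 and 2 and of 0.18 to 0.19 in the low libraries. Counts on mitochondrial genes took 1.72% to 1.99% of the high libraries and 2.59% to 3.16% of the low libraries. Medians are therefore also given without replicate 1, without replicate 3 or with the length trend removed from each library, where these moved them. Totals, length slopes and mitochondrial shares did not overlap between the sets, which are replicates 1 to 3 and 4 to 6. The labels do not say whether replicate numbers follow an order of processing. Such an order and the Pmel level cannot be told apart. From here on, CPM are scaled to TMM-adjusted library sizes and are listed in replicate order, 1 to 3 for high and 4 to 6 for low. Log2 fold changes are high over low with the standard error (SE) of an edgeR fit over all 18 libraries.

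Of 32 pigment genes in 4 lists 31 passed the filter on low counts, and 25 of these were higher in the high libraries, 3 lower and 3 overlapped. Among all 17174 genes tested, 4892 (28.5%) were higher and 4997 (29.1%) lower, with a median log2 fold change of 0.015. The median over the 31 pigment genes was 1.52. Pmel is one of them, and its own place was fixed by the split. Without it 24 of 30 genes were higher and 3 lower, with a median of 1.47. The counts of every list below stand beside the same shares of 28.5% and 29.1%. Leaving out replicate 1 or replicate 3 left these counts at 25 and 3, beside 32% of all genes higher and 32.6% lower without replicate 1, and 34.4% higher and 34.1% lower without replicate 3. Reads on the pigment genes together took 2.25%, 1.999% and 2.89% of the high libraries, 1.09%, 0.709% and 0.587% of the low libraries, and 0.0683% to 0.109% of the lung and breast libraries.

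Besides Pmel, all 9 genes of melanosome structure were higher, with a median log2 fold change of 1.65. Pmel, after scaling, stood at 3960, 3147 and 4774 CPM in the high libraries, against 1585, 1072 and 809.7 CPM in the low libraries. Mlana (MART-1), a melanosomal membrane protein that works with PMEL, had 320.1, 235 and 532 CPM in the high libraries, against 128, 71.8 and 43.3 CPM in the low libraries. Its log2 fold change was 2.16 ± 0.34 (SE), beside 1.78 ± 0.31 for Pmel. Gpnmb, a glycoprotein of late melanosomes that macrophages also make, had 2247, 1658 and 1684 CPM in the high libraries, against 729, 365 and 226 CPM in the low libraries. The melanosomal ion channel and transporter genes Trpm1, Slc24a5 and Slc45a2 lay close together in this respect, with log2 fold changes of 1.62 ± 0.22, 1.65 ± 0.22 and 1.56 ± 0.24. Slc45a2, a transporter that sets melanosome pH, had 764, 672 and 878 CPM in the high libraries, against 348, 234 and 205 CPM in the low libraries. Over all 6 lung libraries it had 3 reads, and over all 6 breast libraries 18 reads. Gpr143, Oca2, Tspan10 and Bace2 completed the list with log2 fold changes of 1.84, 1.43, 1.26 and 1.65.

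The 3 enzymes followed, and 1 library set them apart from each other. Dct (dopachrome tautomerase) took the most reads of the pigment genes, with 5363, 5002 and 10680 CPM in the high libraries, against 2790, 1893 and 1579 CPM in the low libraries. Tyrp1 had 4211, 4078 and 5417 CPM in the high libraries, against 2077, 1172 and 948 CPM in the low libraries. Tyr, the rate-limiting enzyme of melanin synthesis, had 206, 205 and 548 CPM in the high libraries, against 117, 80.7 and 66.04 CPM in the low libraries. Replicate 3 held more Tyr and more Dct than replicates 1 and 2 added up, whereas its Tyrp1 was closer to theirs. The median log2 fold change of the enzymes was 1.75, and 1.32 without replicate 3. Against the other models, which the split did not use, Tyr was higher in melanoma libraries by a log2 fold change of 10.37 ± 0.48 (SE; adjusted p = 1.07e-11) over lung and 9.77 ± 0.47 (SE; adjusted p = 2.41e-11) over breast.

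**Figure D1:**
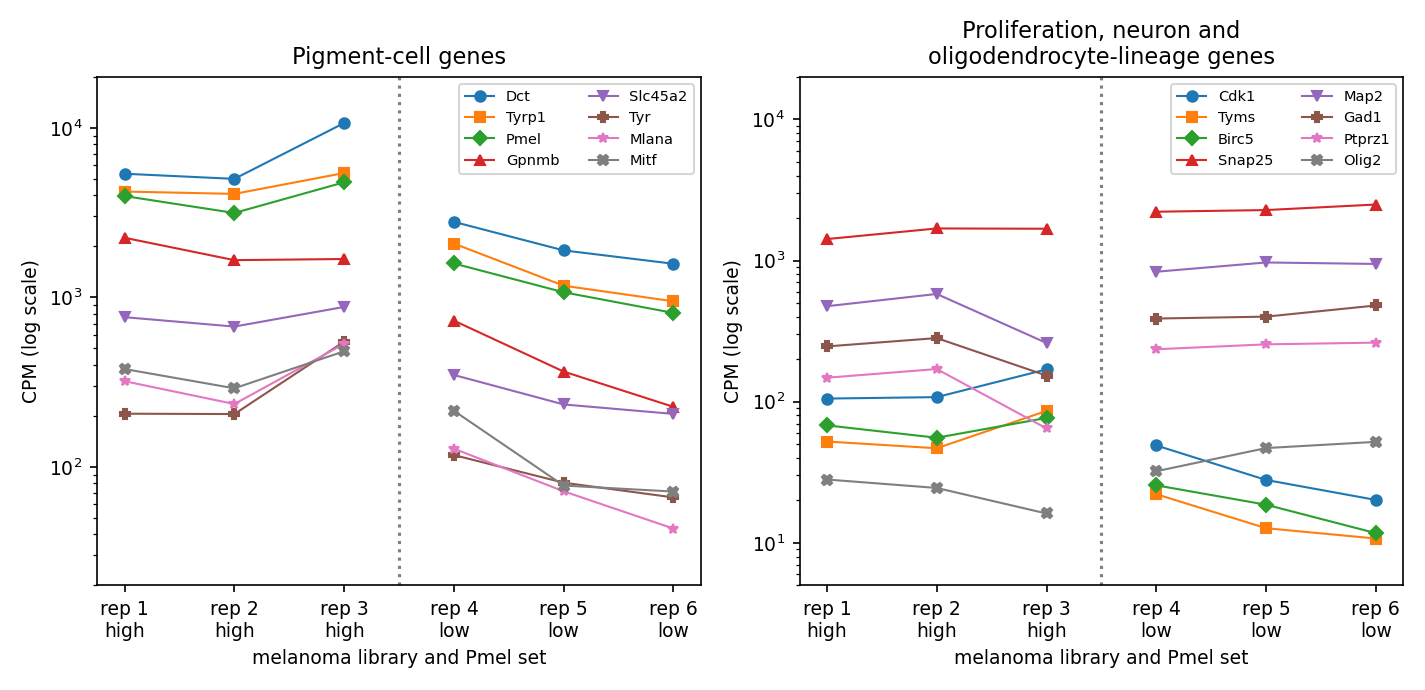
CPM (log axis) in the 6 melanoma libraries, high libraries left of the dotted line and low libraries right of it; each symbol and line is 1 gene. Within the low set the pigment genes, Cdk1, Tyms and Birc5 are highest in replicate 4 and lowest in replicate 6, while Snap25, Map2 and Gad1 lie higher in the low libraries.

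Among regulators of the melanocyte lineage the pattern was not uniform. Mitf had 378, 291 and 481 CPM in the high libraries, against 214, 77.6 and 71.5 CPM in the low libraries. Pax3, which acts with SOX10 on the Mitf promoter, had 80.4, 79.2 and 81.4 CPM in the high libraries, against 39.3, 25.9 and 19.1 CPM in the low libraries. Sox10 had 219.8, 202 and 177 CPM in the high libraries, against 135, 109 and 99.6 CPM in the low libraries, a smaller difference with a log2 fold change of 0.81 ± 0.24. Sox10 is also a gene of oligodendrocytes, and the lung and breast libraries held 22.5 to 54.8 CPM of it. Melanoma libraries were higher by a log2 fold change of 1.91 ± 0.18 (SE; adjusted p = 1.24e-07) over lung and 2.0 ± 0.18 (SE; adjusted p = 6.68e-08) over breast. Met, the receptor of hepatocyte growth factor, had 819, 829.8 and 527 CPM in the high libraries, against 414, 278 and 239.6 CPM in the low libraries. The 3 genes that ran the other way were Kit, Ednrb and Lef1, which brain cells also make. Kit, the receptor of stem cell factor, had 18.8, 26.4 and 10.5 CPM in the high libraries, against 37.9, 39.1 and 40.1 CPM in the low libraries. It passed the test against neither of the other models, with log2 fold changes of 0.05 ± 0.19 (SE; adjusted p = 0.898) over lung and 0.19 ± 0.19 (SE; adjusted p = 0.469) over breast. Ednrb, the endothelin receptor that astrocytes also carry, had 43.8, 49.2 and 29.4 CPM in the high libraries, against 58.2, 71.2 and 79.8 CPM in the low libraries. Tfap2a (log2 fold change 1.35) was the other regulator higher with Pmel, and the melanocortin receptor Mc1r was listed at 0 in all 6 melanoma libraries. Tubb3 of the general neuron list, Cox4i1 of the respiratory chain and the ribosomal gene Rpl13 were also among the genes listed at 0. How reads were assigned is not known, so that a 0 does not show that the RNA was absent.

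Of 10 genes of melanosome transport 7 were higher and 3 overlapped. Rab38 and Rab32 are small GTPases that deliver enzymes to the melanosome. Rab38 had 199.6, 156 and 338 CPM in the high libraries, against 79.5, 52.9 and 37.6 CPM in the low libraries. Rab32 had 28.4, 17.7 and 44.3 CPM in the high libraries, against 11.4, 6.95 and 5.45 CPM in the low libraries. Yet Rab32 did not pass the test against either of the other models, averaging 19.04 ± 14.9 CPM in melanoma libraries, 24.6 ± 10.2 CPM in lung libraries and 23.1 ± 3.85 CPM in breast libraries (SD, n = 6 each). Mlph, which links RAB27A on the melanosome to the motor protein myosin Va, had 136, 121 and 142 CPM in the high libraries, against 66.5, 42.5 and 29.97 CPM in the low libraries. It averaged 89.6 ± 49.3 CPM in melanoma libraries, 69.9 ± 15.4 CPM in lung libraries and 2.23 ± 0.394 CPM in breast libraries (SD, n = 6 each), and passed the test against breast alone. Myo5a, the motor itself and also an abundant neuronal gene, had 703, 673 and 317 CPM in the high libraries, against 707, 648 and 663 CPM in the low libraries. Its sets overlapped, and replicate 3 lay far below the other 5 libraries. Myo5a has a long transcript. The transport genes had a median log2 fold change of 0.79, against 1.65 for melanosome structure without Pmel.

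Differences between the sets reached far beyond pigment. With edgeR, 3491 genes (20.3%) were called higher and 2795 (16.3%) lower at an adjusted p under 0.05, a count that describes how many genes moved with the chosen split. Without replicate 3 the 6286 calls came to 2283, of which 1751 were higher and 532 lower. Without replicate 5 they were 1860 higher and 921 lower, without replicate 6 1499 higher and 577 lower, and without replicate 4 3625 higher and 1145 lower. Over the 6 libraries, 1035 genes (6.03%) stood in exactly the rank order of Pmel and 905 (5.27%) in the opposite order. Of the 30 pigment genes other than Pmel 13 stood in its order. On a log2 scale, a gene that rises in proportion to Pmel has a slope of 1 on Pmel: the median slope was 0.93 for melanosome structure without Pmel and 0.99 for the enzymes, and 0.00 for all genes tested. A slope over 0.8 was found for 528 genes.

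The other 2 models help to place this RNA. Melanoma libraries were higher than lung libraries in 1743 genes (10.1%) and lower in 2965 (17.3%), and higher than breast libraries in 2107 (12.3%) and lower in 3965 (23.1%), by edgeR at an adjusted p under 0.05. Against both models together 1007 genes (5.86%) were higher in melanoma and 2058 (12%) lower. Of the 4892 genes higher with Pmel, 622 (12.7%; 3.62% of all genes tested) were higher in melanoma than in both others, 515 (10.5%) were lower than in both, and 3755 (76.8%) were neither. These 622 genes were 61.8% of the 1007. Of the 4997 genes lower with Pmel, 43 were among the 1007 (4.27% of them). Pigment genes other than Pmel made up 21 of the 622. Among the 528 genes with a slope over 0.8, 81 were higher in melanoma than in both other models and 135 were lower than in both.

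**Figure D2:**
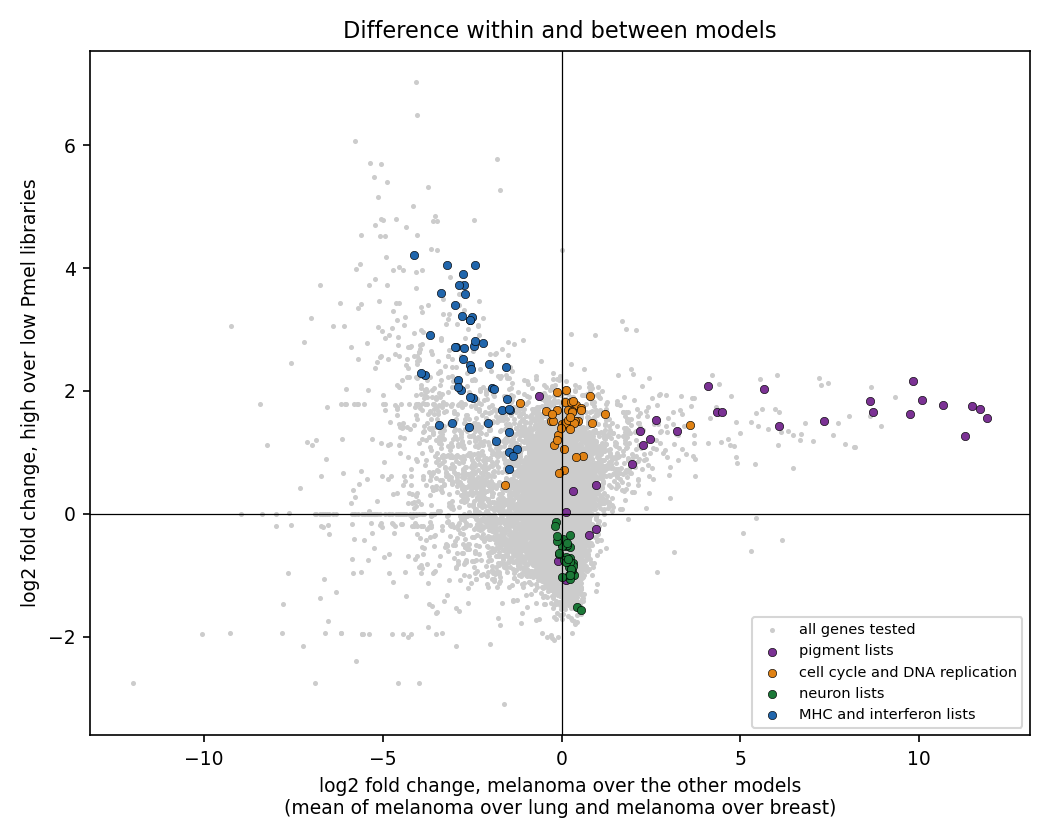
Each point is a gene tested; the y axis gives the log2 fold change of high over low Pmel libraries and the x axis the mean of the log2 fold changes of melanoma over lung and over breast. Most pigment genes lie at the upper right, cell cycle and DNA replication genes above 0 near the middle, neuron genes below 0 near the middle, and antigen presentation and interferon genes at the upper left.

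By the correlation of log2 CPM with that of Pmel over the 6 libraries, the genes most like Pmel outside the pigment lists were Vill, Gmps, Gm4617, Pmf1, Tmf1 and Tk1. Gm4617 is annotated as a processed pseudogene, so that the assignment of its reads is uncertain. Pearson's r ran from 0.9990 for Tk1 to 0.9999 for Vill, over 6 libraries that also differ in RNA composition, and is a description. Tk1, thymidine kinase of the nucleotide salvage pathway, had 67.4, 56.8 and 88.6 CPM in the high libraries, against 26.9, 16.3 and 12.7 CPM in the low libraries. Pmf1, a protein of the kinetochore, had 55.6, 46.8 and 74.4 CPM in the high libraries, against 23.1, 15.5 and 11.6 CPM in the low libraries. Vill, a villin-like protein, had 35.7, 28.8 and 41.9 CPM in the high libraries, against 15.2, 10.6 and 8.01 CPM in the low libraries. Their slopes on Pmel were 1.09, 1.02 and 0.93. Gmps, an enzyme of guanine nucleotide synthesis, had the shallower slope of 0.24. Only Tmf1, a Golgi protein, was also higher in melanoma than in both other models among these 6, averaging 109 ± 39.4 CPM in melanoma libraries, 52.7 ± 2.54 CPM in lung libraries and 49.9 ± 4.396 CPM in breast libraries (SD, n = 6 each).

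Proliferation genes followed Pmel nearly as closely as the pigment genes did. All 20 genes of DNA replication and 17 of 20 cell cycle genes were higher in the high libraries, where 28.5% of all genes were, with median log2 fold changes of 1.52 and 1.5. Cdk1, the kinase that starts mitosis, had 105, 108 and 169 CPM in the high libraries, against 48.97, 27.9 and 20.1 CPM in the low libraries. Birc5 (survivin), a protein of the dividing chromosome, had 67.9, 55.5 and 76.7 CPM in the high libraries, against 25.6, 18.6 and 11.7 CPM in the low libraries. Aurkb, the kinase that works beside it, had 60.1, 59.2 and 60.5 CPM in the high libraries, against 25.3, 13.9 and 11.5 CPM in the low libraries. The genes of DNA precursors were alike in this. Tyms, which makes thymidylate for DNA, had 52.2, 46.8 and 86.03 CPM in the high libraries, against 22.1, 12.7 and 10.7 CPM in the low libraries. Rrm2, a subunit of ribonucleotide reductase, had 216, 191 and 235 CPM in the high libraries, against 81.1, 44.1 and 44.5 CPM in the low libraries. Gins2, part of the replicative helicase, had 17.3, 14.7 and 25.7 CPM in the high libraries, against 7.34, 5.01 and 4.13 CPM in the low libraries. Within the low set Cdk1, Tyms and Birc5 had the order of Pmel, with replicate 4 the highest and replicate 6 the lowest.

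The 3 cell cycle genes whose sets overlapped were Mki67, Cenpf and Foxm1, each because of replicate 3. Mki67, the usual marker of dividing cells, had 129, 112 and 25.2 CPM in the high libraries, against 61.99, 46.4 and 29.9 CPM in the low libraries. Without replicate 3 its log2 fold change was 1.39, against 0.95 ± 0.49 (SE) with it, and all 20 genes of the list were higher. Mki67 and Cenpf have long transcripts. The cell cycle median was 1.52 once the length trend was removed from each library.

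Unlike the pigment genes, few proliferation genes were higher in melanoma than in both other models. Of all genes tested, 10.1% were higher in melanoma than in lung libraries and 17.3% lower. Against breast libraries 12.3% were higher and 23.1% lower. Of 20 cell cycle genes 7 were higher in melanoma than in lung libraries and 1 lower, and 1 was higher than in breast libraries and 4 lower. Of 20 replication genes 12 were higher than in lung and none lower, and 1 was higher than in breast and 6 lower. For both lists the count higher than in lung lay above the share of all genes. Cdk1 averaged 79.9 ± 57.7 CPM in melanoma libraries, 47.5 ± 15.1 CPM in lung libraries and 102 ± 36.9 CPM in breast libraries (SD, n = 6 each), with log2 fold changes of 0.43 ± 0.27 (SE; adjusted p = 0.269) over lung and -0.66 ± 0.27 (SE; adjusted p = 0.06) over breast. The exceptions were Mcm2, a part of the replicative helicase, at 1.57 ± 0.19 (SE; adjusted p = 2.29e-06) over lung and 0.87 ± 0.18 (SE; adjusted p = 0.000923) over breast, and Cdk2. The Cdk2 gene lies next to Pmel in the mouse genome, so that the split of reads at their border is uncertain. Cdk2 had 406, 379 and 470.0 CPM in the high libraries, against 212, 128 and 119.9 CPM in the low libraries, and averaged 286 ± 152 CPM in melanoma libraries, 16.2 ± 4.47 CPM in lung libraries and 26.98 ± 6.16 CPM in breast libraries (SD, n = 6 each). Its log2 fold change was 3.96 ± 0.22 (SE; adjusted p = 1.11e-10) over lung and 3.23 ± 0.21 (SE; adjusted p = 1.22e-09) over breast. Cyclin D1 (Ccnd1) went the other way between models, at -1.83 ± 0.14 (SE; adjusted p = 8.07e-09) over lung and -1.35 ± 0.14 (SE; adjusted p = 2.91e-07) over breast.

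Biosynthesis went along with proliferation, at smaller size. Of 15 ribosome biogenesis genes 14 were higher (median log2 fold change 0.72), as were 8 of 9 genes of purine and pyrimidine synthesis (0.7). Nop2, a methyltransferase of ribosomal RNA, had 88.3, 79.5 and 106 CPM in the high libraries, against 44.2, 41.7 and 38.5 CPM in the low libraries. Atic, which closes the purine ring, had 101, 90.8 and 119 CPM in the high libraries, against 57.8, 57.5 and 51.2 CPM in the low libraries. Of 17 genes of glycolysis and hypoxia 12 were higher and 1, Ndrg1, was lower (0.41). Ldha, lactate dehydrogenase A, had 858, 789 and 1079 CPM in the high libraries, against 464, 442 and 449 CPM in the low libraries. Car9, the carbonic anhydrase induced in hypoxia, had 12.5, 8.58 and 13.6 CPM in the high libraries, against 5.76, 3.801 and 4.29 CPM in the low libraries, and was higher in melanoma by log2 fold changes of 2.19 ± 0.26 (SE; adjusted p = 2.36e-06) over lung and 1.94 ± 0.26 (SE; adjusted p = 8.5e-06) over breast. Gapdh and Fdps were read at under 11 CPM, and both have many near-identical copies in the genome, so that their values are uncertain.

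Of 15 genes of cholesterol synthesis and uptake 10 were higher and none lower (0.64). Cyp51, an enzyme of cholesterol synthesis, had 338, 304 and 293 CPM in the high libraries, against 205, 146 and 142 CPM in the low libraries. Against breast libraries 14 of the 15 were higher in melanoma, and against both other models 5, among them Cyp51 with 0.80 ± 0.11 (SE; adjusted p = 1.5e-05) over lung and 1.20 ± 0.11 (SE; adjusted p = 9.17e-08) over breast.

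For 3 further groups the size of the difference rested largely on replicate 3. Genes of serine synthesis and amino acid stress were higher in 11 of 13 cases, with a median of 1.27, or 0.47 without that library. Trib3, a target of the stress factor ATF4, had 15, 22.7 and 149 CPM in the high libraries, against 9.85, 9.36 and 3.96 CPM in the low libraries. Psph, the last enzyme of serine synthesis, had 197 CPM in replicate 3 and 40.8 CPM or less in the other high libraries, against 30.5, 24.9 and 24.02 CPM in the low libraries. Ribosomal protein genes had a median of 1.06 and 0.56 without replicate 3, and respiratory chain genes 0.49 and 0.22. Reads were uneven within the ribosomal list: in replicate 1 Rps6 had 79 reads and Rps3 10796, and Rpl13 was listed at 0. Values of that list are therefore uncertain. Rplp0, a ribosomal protein, had 658, 599 and 1400 CPM in the high libraries, against 367, 325 and 312 CPM in the low libraries. Ndufa4, a subunit of the respiratory chain, had 402, 428 and 859 CPM in the high libraries, against 326, 296 and 329 CPM in the low libraries. For both, replicate 3 stood well above replicates 1 and 2. Sdhb, of succinate dehydrogenase, was higher in melanoma than in both other models, at 0.79 ± 0.17 (SE; adjusted p = 0.00165) over lung and 0.65 ± 0.17 (SE; adjusted p = 0.00602) over breast.

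Neuronal RNA ran opposite to Pmel. Of 14 general neuron genes 13 were lower in the high libraries and none higher, where 29.1% of all genes were lower. All 12 genes of excitatory neurons and 9 of 11 of inhibitory neurons were lower as well. Snap25, a protein of synaptic vesicle fusion, had 1419, 1687 and 1679 CPM in the high libraries, against 2216, 2277 and 2492 CPM in the low libraries. Map2, which binds the microtubules of dendrites, had 475, 579.5 and 260.5 CPM in the high libraries, against 833, 969 and 946 CPM in the low libraries. Gad1, which makes the transmitter GABA, had 246, 282 and 153 CPM in the high libraries, against 388, 400.3 and 480.2 CPM in the low libraries. Median log2 fold changes were -0.71, -0.8 and -0.48, and without replicate 3 -0.58, -0.63 and -0.52. Summed over the general neuron list, CPM of the library total were 6210 to 8109 in the high libraries and 10490 to 11410 in the low libraries. No gene of the 3 lists was higher or lower in melanoma than in both other models. Uchl1, the exception among the general neuron genes, had 464, 500.4 and 706 CPM in the high libraries, against 565, 632 and 638 CPM in the low libraries, with replicate 3 the highest of the 6.

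Fat4, Kcnj6, Grin2b and Grin2a were among the 8 genes with the lowest log2 fold changes of protein-coding genes at 5 CPM or more whose sets did not overlap, and edgeR called them all but Grin2b. Grin2b, a subunit of the NMDA receptor, had 122, 86.8 and 17.1 CPM in the high libraries, against 220.2, 217 and 235 CPM in the low libraries. Grin2a, another subunit, had 52.3, 51.5 and 13.01 CPM in the high libraries, against 107, 110.1 and 117 CPM in the low libraries. Replicate 3 held 17.1 CPM of Grin2b, far below replicates 1 and 2, and without it the log2 fold change was -1.09 against -1.57 ± 0.69 (SE) with it. With the length trend removed it was -1.07. Kcnj6, a potassium channel, had 20.1, 22.3 and 5.88 CPM in the high libraries, against 42.4, 48.9 and 52.4 CPM in the low libraries. Fat4, a giant cadherin, had 4.49, 3.59 and 1.02 CPM in the high libraries, against 11.6, 10.8 and 9.41 CPM in the low libraries. In each of the 4 genes replicate 3 was the lowest library.

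Genes induced by neuronal activity had the lowest median of the 38 lists, -1.26, with 9 of 12 lower. Egr1, an immediate early transcription factor, had 61.7, 60.7 and 24.4 CPM in the high libraries, against 175, 119 and 129 CPM in the low libraries. Npas4, which responds to calcium entry in neurons, had 2.43, 2.65 and 1.02 CPM in the high libraries, against 7.25, 5.56 and 10.6 CPM in the low libraries. Arc, a synaptic protein made on activity, had 36.9, 29.3 and 16.2 CPM in the high libraries, against 165, 49.1 and 55.8 CPM in the low libraries, where replicate 4 stood out within the low set. Between models, Fos, Fosb and Junb were lower in melanoma than in both others, with Fos at -1.23 ± 0.24 (SE; adjusted p = 0.000585) against lung and -1.08 ± 0.24 (SE; adjusted p = 0.00157) against breast. Genes of single brain regions were lower in 9 of 14 cases (median -0.5), among them the striatal Drd2 with 19.9, 24.9 and 11.8 against 30.3, 33.9 and 36.2 CPM.

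Oligodendrocyte precursor genes were lower in all 9 cases (median -0.92, and -0.58 without replicate 3), where 29.1% of all genes were lower, and myelin genes in 9 of 12 (-0.47). Olig2, a transcription factor of the lineage, had 28.1, 24.5 and 16.1 CPM in the high libraries, against 32.1, 46.9 and 51.9 CPM in the low libraries. Mbp, a main protein of myelin, overlapped, with 1811, 1892 and 2079 CPM in the high libraries, against 1971, 2534 and 2419 CPM in the low libraries. Of 12 genes of resting astrocytes 8 were lower and none higher (-0.48). Slc1a2, the glutamate transporter of astrocytes, had 667, 761 and 279.7 CPM in the high libraries, against 1089, 1246 and 1244 CPM in the low libraries. Aqp4, a water channel, had 85.7, 124 and 64.4 CPM in the high libraries, against 140.5, 168 and 165 CPM in the low libraries, and was also lower in melanoma than in the other models, at -0.90 ± 0.17 (SE; adjusted p = 0.000371) against lung and -0.89 ± 0.17 (SE; adjusted p = 0.000365) against breast.

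Of 16 reactive astrocyte genes 8 were higher, none lower and 8 overlapped, where 28.5% of all genes were higher (median 0.53). Among the 8 higher genes was Cxcl10, an interferon-induced chemokine. Vim (vimentin), an intermediate filament that melanoma cells also make, had 607, 528 and 606 CPM in the high libraries, against 289.9, 209 and 180.0 CPM in the low libraries. Gfap, the filament protein of reactive astrocytes, had 348, 375 and 449.6 CPM in the high libraries, against 318, 329.7 and 276 CPM in the low libraries, a log2 fold change of 0.35 ± 0.20 (SE). Melanoma libraries as a whole had little of this program: 13 of the 16 genes were lower than in both other models. Gfap averaged 349 ± 59.2 CPM in melanoma libraries, 2013 ± 547 CPM in lung libraries and 1765 ± 118 CPM in breast libraries (SD, n = 6 each), with log2 fold changes of -2.54 ± 0.15 (SE; adjusted p = 2.14e-10) against lung and -2.35 ± 0.15 (SE; adjusted p = 6.5e-10) against breast. Fbln5, an elastic fibre protein, was the member that went against this, with 234, 206 and 341 CPM in the high libraries, against 108, 77.2 and 68.7 CPM in the low libraries. It was higher in melanoma by 2.85 ± 0.20 (SE; adjusted p = 3.77e-09) over lung and 3.89 ± 0.22 (SE; adjusted p = 1.73e-10) over breast. Tumour cells too can express several genes of this list, Vim and Cd44 among them.

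Where 29.1% of all genes were lower, vessel genes were lower in 8 of 15 endothelial cases (median -0.38) and 5 of 10 pericyte cases (-0.44). By edgeR, 3 of the 15 and 1 of the 10 were called lower, beside 16.3% of all genes, so that these calls lay near that share. Cldn5, a tight junction protein of the blood-brain barrier, had 47.6, 45.8 and 41.7 CPM in the high libraries, against 49.9, 57.3 and 56.8 CPM in the low libraries. Abcb1a, the drug efflux pump of that barrier, had 18.9, 21.4 and 12.3 CPM in the high libraries, against 28.8, 37.1 and 37.6 CPM in the low libraries. Abcg2, another efflux pump, was the endothelial gene higher with Pmel, at 22.4, 24.7 and 42.8 against 19.98, 21.5 and 21.6 CPM, with replicate 3 the highest. Choroid plexus and ependymal genes were lower in 7 of 10 cases, among them Kl (klotho) with 10.7, 18.9 and 5.49 against 26.7, 28.5 and 31.1 CPM. Fibroblast and matrix genes gave 2 higher and 3 lower of 15 (median -0.22). Fbln1, which binds the extracellular matrix, had 77.4, 69.1 and 49.99 CPM in the high libraries, against 38.3, 36.4 and 26.9 CPM in the low libraries, and was higher in melanoma than in both other models. Col1a1, a collagen of fibroblasts, overlapped, with 17.9, 10.8 and 4.23 against 14.2, 19.8 and 14.6 CPM. Haemoglobin and other erythroid genes gave no member without overlap.

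**Figure D3:**
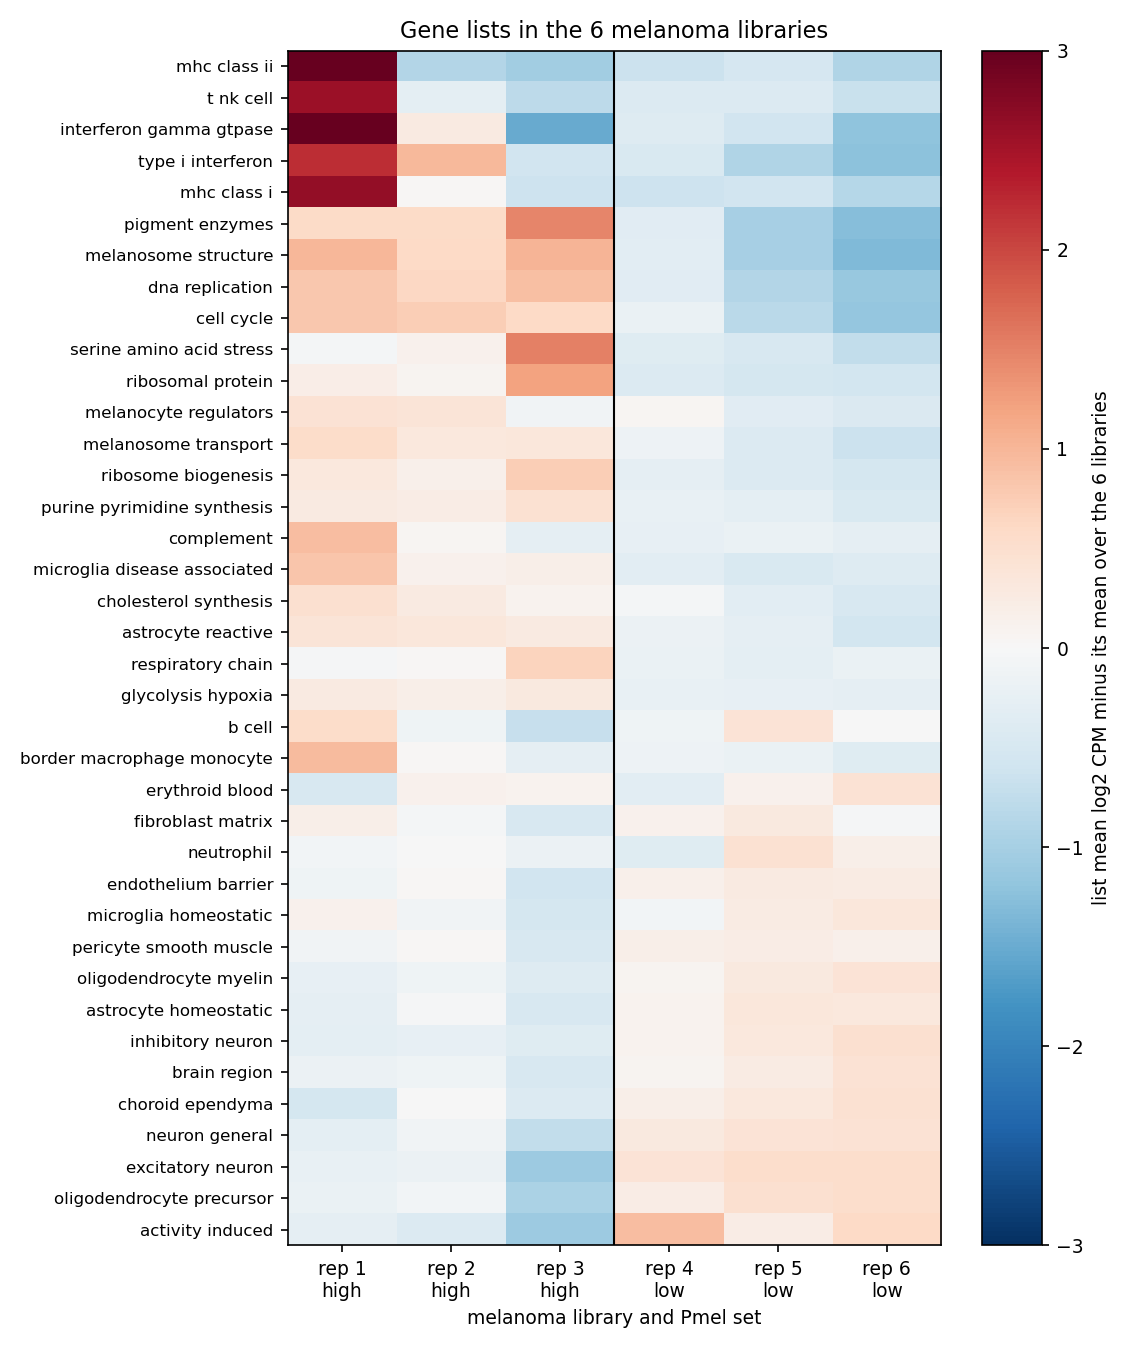
Mean log2 CPM of each of 38 gene lists in each melanoma library, minus its mean over the 6 libraries, in colour (red above, blue below), with lists ordered by their median log2 fold change of high over low and the high libraries left of the line. The upper rows with antigen presentation, T cell and interferon lists are reddest in replicate 1, and type I interferon is also red in replicate 2. Pigment and proliferation lists are red in all 3 high libraries, except that melanocyte regulators lie slightly below their mean in replicate 3. Neuron, precursor and activity lists are bluest in replicate 3.

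Immune genes showed the largest median differences of any list, and these rested mostly on replicate 1. The medians for MHC class II, T and NK cell, interferon-induced GTPase, type I interferon and MHC class I genes were 3.6, 3.01, 2.78, 2.22 and 1.85. Without replicate 1 they were 0.01, -0.36, 0.41, 1.2 and 0.53. On the higher side, sets without overlap were found for 5 of 12 class I genes and 1 of 17 T and NK cell genes. The list of interferon-induced GTPases, with 9 genes tested, also held Irf1, a transcription factor, and Cxcl9, a chemokine. Of these 9 only Irf1 was without overlap, and every GTPase tested overlapped. H2-Aa, an MHC class II chain of antigen-presenting cells, had 158, 5.46 and 3.06 CPM in the high libraries, against 5.297, 4.17 and 3.22 CPM in the low libraries. All 7 class II genes were highest in replicate 1, and none separated the sets. Their reads came to 12160 in replicate 1 and to 341 to 471 in each of the other 5 libraries. B2m, the invariant chain of MHC class I, had 1117, 227 and 235 CPM in the high libraries, against 145, 127 and 111 CPM in the low libraries. H2-K1, a class I heavy chain, had 235, 60.03 and 33.3 CPM in the high libraries, against 37.3, 41.6 and 38.4 CPM in the low libraries, and its sets overlapped. Psmb8, a subunit of the immunoproteasome, had 148, 12.6 and 8.23 CPM in the high libraries, against 5.204, 5.93 and 4.79 CPM in the low libraries. Irgm1, a GTPase induced by interferon gamma, had 329.7, 43.2 and 18.3 CPM in the high libraries, against 22.9, 19.5 and 13.5 CPM in the low libraries.

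T cell genes had few reads, most of them in the same library. Cd3e, a chain of the T cell receptor complex, had 1.103, 0.07797 and 0 CPM in the high libraries, against 0, 0 and 0 CPM in the low libraries. Cd8a had 3.82, 0.156 and 0 CPM in the high libraries, against 0, 0 and 0 CPM in the low libraries. Gzmb, a protease of cytotoxic cells, had 5.59, 0 and 0.0784 CPM in the high libraries, against 0, 0.185 and 0 CPM in the low libraries. Of the 20 genes on the T and NK cell list 19 had their highest count in replicate 1. Their reads came to 826 in replicate 1 and to 199 to 250 in each of the other 5 libraries. Summed over the list, CPM of the library total ran from 16.6 to 61.7 in the high libraries and from 18.6 to 20.3 in the low libraries. Neutrophil genes were scarce too. Their summed CPM of the library total was 4.399 to 7.32 in the high and 5.25 to 8.52 in the low libraries. Ly6g was at 0 in replicates 1, 3, 4 and 5, and none of 7 neutrophil genes tested was without overlap.

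Of 20 type I interferon genes 7 were higher with all libraries, beside 28.5% of all genes, and 7 without replicate 1, beside 32%, so that these counts lay near the share of all genes. Without replicate 3 all 20 were higher, beside 34.4%. By edgeR over all libraries, 18 of the 20 were called higher, beside 20.3% of all genes. For all 20 the highest value of the 6 melanoma libraries was in replicate 1. Isg15, a ubiquitin-like protein, had 67.6, 27.8 and 13.3 CPM in the high libraries, against 8.74, 5.01 and 2.97 CPM in the low libraries. Irf7, the factor that amplifies the interferon response, had 41.8, 30.4 and 7.68 CPM in the high libraries, against 6.41, 6.304 and 3.96 CPM in the low libraries, so that replicate 2 was the second highest and replicate 3 close to the low set. Cxcl10, an interferon-induced chemokine, was on the reactive astrocyte list and not on the type I interferon list. Cxcl10 had 72.4, 36.2 and 23.7 CPM in the high libraries, against 16.9, 7.51 and 2.56 CPM in the low libraries. Bst2 (tetherin), a membrane protein that holds back budding virus, had 160.0, 40.6 and 27.7 CPM in the high libraries, against 17.8, 11.96 and 5.45 CPM in the low libraries. Oas1a, which senses double-stranded RNA, had 39.9, 9.43 and 10.2 CPM in the high libraries, against 3.62, 3.62 and 1.73 CPM in the low libraries. Melanoma libraries were nonetheless lower than both other models in 17 of the 20 genes, Isg15 with log2 fold changes of -2.21 ± 0.49 (SE; adjusted p = 0.00181) against lung and -3.69 ± 0.51 (SE; adjusted p = 1.32e-05) against breast.

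Microglial genes did not follow Pmel as a group. Of 12 genes of resting microglia 2, P2ry12 and Sall1, were lower and none higher (median -0.41). Aif1 (IBA1), a marker of microglia and macrophages, had 22.1, 7.49 and 6.42 CPM in the high libraries, against 5.95, 6.396 and 7.1 CPM in the low libraries, so that replicate 1 alone was high. Of 16 genes of disease-associated microglia 9 were higher (0.67, and 0.32 without replicate 1). Lgals3 (galectin-3), a lectin of phagocytes, had 58.1, 25.4 and 33.1 CPM in the high libraries, against 9.11, 4.82 and 5.28 CPM in the low libraries. Cd63, a protein of lysosomes and also of melanosomes, had 440.2, 357 and 925 CPM in the high libraries, against 217, 146 and 134 CPM in the low libraries. Ctsz, a lysosomal protease, had 405, 291 and 347 CPM in the high libraries, against 166, 129 and 107 CPM in the low libraries. The defining member Trem2, a receptor of microglia, overlapped, with 17.5, 12.1 and 14.2 CPM in the high libraries, against 13.01, 14.2 and 16.9 CPM in the low libraries. Its partner Tyrobp overlapped too, with 25.8, 13.96 and 19.6 CPM in the high libraries, against 14.3, 15.7 and 17.2 CPM in the low libraries. In melanoma 11 of 12 resting and 13 of 16 disease-associated genes were lower than in both other models. Complement genes had 4 higher and 1 lower of 10, and 9 lower in melanoma than in both others. C1qa, a chain of complement C1q made by microglia, had 111, 58.2 and 72.5 CPM in the high libraries, against 45.9, 54.05 and 54.98 CPM in the low libraries, and stood at -2.58 ± 0.24 (SE; adjusted p = 1.11e-07) against lung. Genes of border macrophages and monocytes had 2 higher and 3 lower of 12 (median 0.08), and B cell genes none of 5 in either direction.

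**Figure D4:**
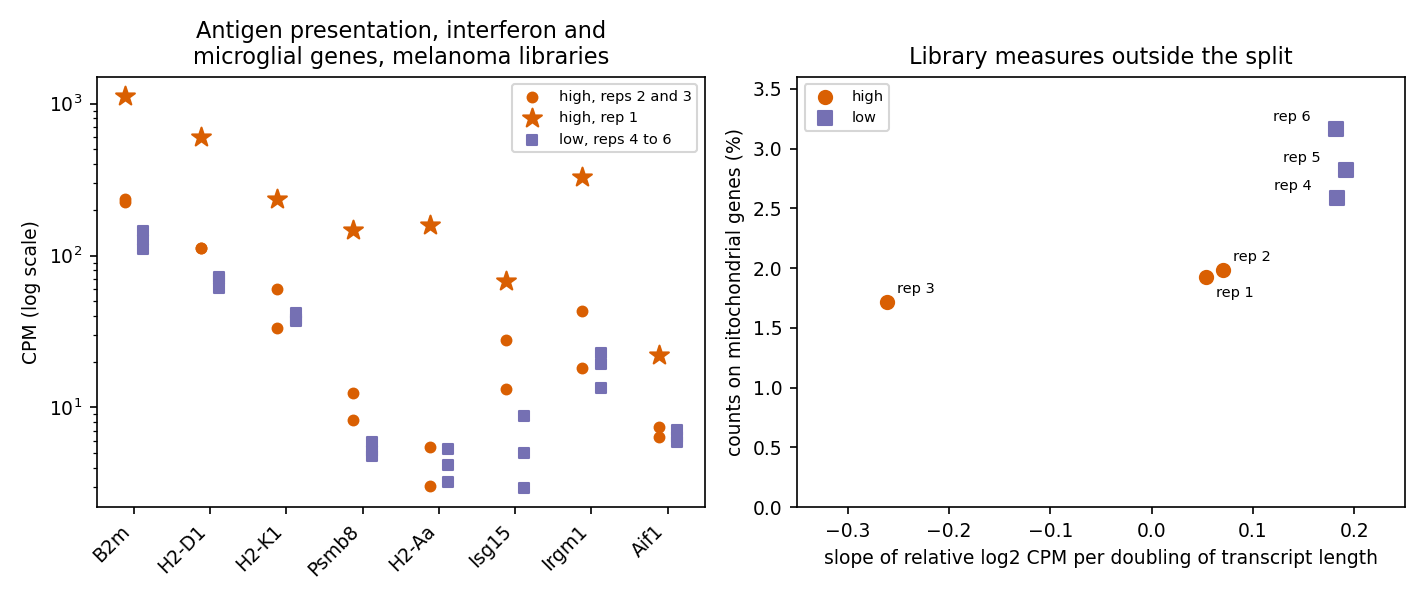
Left, CPM (log axis) of genes of antigen presentation, interferon response and microglia in the 6 melanoma libraries, with replicate 1 as a star, the other high libraries as circles and the low libraries as squares; replicate 1 lies above the other 5 for each of these genes. Right, the slope of relative log2 CPM on transcript length against the share of counts on mitochondrial genes, 1 point per library, where replicate 3 stands alone at a slope of -0.26.

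Among the 622 genes that were higher with Pmel and higher in melanoma than in both other models, 491 protein-coding genes outside the lists had a mean of at least 5 CPM. Among those with the largest smaller fold change over the other models, chosen after their values were seen, were Fkbp6, Gsdmc, Fndc3c1, Gsta2, Trim63, Pla2g2e, Cdk15, Car6 and Alx1. Fkbp6, a peptidyl-prolyl isomerase known from the testis, had 70.9, 66.3 and 97.3 CPM in the high libraries, against 34.6, 23.6 and 19.7 CPM in the low libraries. It averaged 52.1 ± 30.9 CPM in melanoma libraries, 0.0846 ± 0.111 CPM in lung libraries and 0.123 ± 0.117 CPM in breast libraries (SD, n = 6 each). Cdk15, a kinase of the cyclin-dependent family, had 37.3, 25.1 and 21.3 CPM in the high libraries, against 12.3, 7.14 and 7.26 CPM in the low libraries. Alx1, a homeobox gene of the cranial neural crest, had 16.98, 16.7 and 34 CPM in the high libraries, against 10.2, 6.03 and 4.46 CPM in the low libraries. Car6, a secreted carbonic anhydrase, had 27.1, 28.1 and 111 CPM in the high libraries, against 19.8, 14.8 and 4.38 CPM in the low libraries, with most of the RNA in replicate 3. Gsdmc and Gsta2 have close paralogs, so that the split of reads among copies is uncertain. Nnmt, nicotinamide N-methyltransferase, had the largest log2 fold change of high over low within the 622 genes among those at 5 CPM or more. It had 12.1, 9.2 and 64.1 CPM in the high libraries, against 5.39, 2.41 and 1.899 CPM in the low libraries, and replicate 3 was far above the rest.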

How the data were processed

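Directional poly(A)+ libraries were built from 1 µg of RNA (RNeasy), per the labels' protocols. The submitters' processing notes name bcl2fastq and GRCm39. Which aligner and counter were used, and whether strand was counted, is not given in the sources used here. Whole numbers in the deposited table show raw counts per Ensembl gene that the authors had not normalized. A deposited table of CPM was not used.

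Of 55416 gene IDs 52083 (94%) had a symbol. The fit used edgeR 4.0.16 (R 4.3.3; TMM, filterByExpr, 17174 genes, robust quasi-likelihood, Benjamini-Hochberg) with 4 coefficients: high, low, lung and breast. Melanoma is the mean of high and low, so that the difference between them does not enter the spread behind its SE and p-values. A p-value from edgeR is printed only between models, since their groups come from the labels. List means use log2 CPM with a small constant added to the CPM. Length slopes use log2 CPM (prior count 2) over 17157 genes. No 2 melanoma libraries agreed within sampling noise (chi-square test). The fit was tested on simulated data.

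Members, the 38 lists (481 genes, 462 tested) and alternatives were chosen with earlier results of these data known. The rule named 121 genes, of which a part is described: the 10 pigment genes with most CPM beside Pmel, the 8 largest differences each way (protein-coding, at least 5 CPM, no overlap, outside the pigment lists), the 3 largest without overlap per list, the 6 most like Pmel, and 11 markers. Other list members, and the genes from Fkbp6 onward, were picked with their values in view. Some genes are not reported here. Alternatives were other scalings (DESeq2 size factors, library totals), filters, DESeq2 1.42.0, a fit of the 6 melanoma libraries, leaving out libraries, removing the length trend, and splitting by summed pigment genes or by continuous Pmel.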

Additional observations from a re-analysis of the deposited data

Results flagged for a closer look

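Each mean of a gene list and each named gene was examined over the 6 melanoma libraries for a single library far from the other 5, by Dixon's test at the 95% level. Chance flags about 1 in 20. Of 38 list means 7 were flagged, and of 120 named genes 17, with 13 of the flags in replicate 1, 11 in replicate 3 and none in the other 4 libraries.

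Replicate 1 was the highest for mean log2 CPM of MHC class II (6.36), MHC class I (7.29), interferon-induced GTPase (6.81), T and NK cell (1.56), complement (4.45) and border macrophage and monocyte genes (2.23). The same library was the highest for B2m (1117 CPM), H2-D1 (603 CPM), H2-K1 (235 CPM), H2-Aa (158 CPM), Psmb8 (148 CPM), Aif1 (22.1 CPM) and Cd3e (1.103 CPM).

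Replicate 3 was the highest for mean log2 CPM of respiratory chain genes (8.66), and for Ndufa4 (859 CPM), Ndufb8 (194 CPM) and Psph (197 CPM). It was the lowest for Myo5a (317 CPM), Grin2a (13.01 CPM), Kcnj10 (55.9 CPM), Flt1 (16.1 CPM), Tek (5.25 CPM), Notch3 (4.07 CPM) and Pdgfrb (8.78 CPM). Its slope on transcript length was -0.26. Once the length trend was removed from each library, the log2 fold change of high over low was 0.15 for Myo5a, -1.11 for Grin2a, -0.65 for Flt1 and 0.50 for Ndufa4, against -0.25, -1.52, -0.88 and 0.83 before.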

How the results depend on the processing

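Of the 38 list medians 5 changed sign under some alternative, namely T and NK cell (3.01, and -0.36 without replicate 1), B cell (0.13, and -0.38 without replicate 1), neutrophil (-0.32, and 0.24 without replicate 5), erythroid (-0.14, and 0.03 without replicate 1) and border macrophage and monocyte genes (0.08, and -0.07 with only the 6 melanoma libraries). Among the named genes Myo5a changed sign (-0.25, 0.04 without replicate 3 and 0.15 with the length trend removed), and it was not called. No other median or named fold change did. The 6286 calls between the sets became 3845 with only the 6 melanoma libraries in the fit and 2076 to 6786 with each melanoma library left out in turn. Of the 6286, 34.4% were also called without replicate 3 and 32.9% without replicate 6. DESeq2 gave 7293 and continuous Pmel 7365. Genes in the rank order of Pmel or its opposite (1940) became 3025 to 3918 with 1 library left out and 3239 without melanoma replicate 3 and breast replicates 18 and 19, since fewer libraries have fewer orders. The split by summed pigment genes was identical. Total counts between models, and the count of the 622 genes, moved by less than 1.5 times. Counts of higher genes alone moved more. Genes higher in melanoma than in breast libraries went from 2107 to 3901 without melanoma replicate 3. Genes higher than in lung libraries went from 1743 to 2777 without melanoma replicate 3 and breast replicates 18 and 19. Of 570 list medians 28 moved by more than the spread, and of 1570 log2 fold changes of named genes 111. Leaving out replicate 4 moved the median of all genes to 0.12. No paired analysis was possible because the replicate numbers are not shared between groups. Genes near the floor of 3 counts, up to 0.281 CPM, could not be compared at this depth.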

Other observations

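Not all RNA that was higher in melanoma than in both other models followed Pmel. Of the 1007 such genes 342 overlapped between the sets and 43 were lower in the high libraries. Kcnj13, a potassium channel of pigment epithelium and choroid plexus, had 105, 33.5 and 20.7 CPM in the high libraries, against 21.5, 20.5 and 23.7 CPM in the low libraries, so that replicate 1 alone was high. Hoxa11, a homeobox gene of limb and posterior trunk, had 4.19, 6.16 and 11.8 CPM in the high libraries, against 4.55, 1.21 and 1.57 CPM in the low libraries, and 1 read in the 12 lung and breast libraries together. Abca12, a lipid transporter of skin, had 27.7, 33.4 and 23.1 CPM in the high libraries, against 23.7, 9.55 and 3.55 CPM in the low libraries, and 1 to 4 reads in lung libraries and 0 to 3 reads in breast libraries. Among the 43, Sort1 (sortilin), a sorting receptor, had 530.0, 556 and 318 CPM in the high libraries, against 597, 581 and 581 CPM in the low libraries, and averaged 527 ± 105 CPM in melanoma libraries, 274 ± 85.9 CPM in lung libraries and 248 ± 86.4 CPM in breast libraries (SD, n = 6 each). Its log2 fold change of high over low was -0.32 ± 0.34 (SE), and edgeR did not call it. Without replicate 3 the fold change was -0.11, and with the length trend removed -0.06. By contrast, Mgarp, a mitochondrial protein, was higher with Pmel, with 298, 147 and 154 CPM in the high libraries, against 63.3, 36.1 and 25.5 CPM in the low libraries. So was Tbx2, a T-box factor of melanocytes, with 113, 85.5 and 67.6 CPM in the high libraries, against 42.1, 34.7 and 30.5 CPM in the low libraries. These genes were chosen after their values were seen.

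Cdkn2a, which codes for cell cycle inhibitors, had 3, 2 and 1 reads in the high libraries, 1, 1 and 5 in the low libraries, 1407 to 3372 in the lung libraries and 2 to 10 in the breast libraries.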
